A study of Mus musculus with 18 samples.

Results

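MicroRNAs reach their working form through a short chain of proteins, and the 10 genes described here encode the core of that chain. Drosha and its RNA-binding partner Dgcr8 cut the primary transcript in the nucleus, exportin 5 (Xpo5) carries the hairpin to the cytoplasm, and Dicer1 cuts it to a duplex. An Argonaute protein (Ago1, Ago2 or Ago3) keeps one strand as a guide, and the Tnrc6 scaffold proteins (Tnrc6a, Tnrc6b, Tnrc6c) connect it to the enzymes that shorten the poly(A) tail and remove the cap of the target. Ago2 is the mouse Argonaute known for cutting a fully matched target, and it also matures a hairpin that Dicer1 does not process. The genes were listed by name for their role, with no cut on their values, and all 10 of 10 were found among its 31165 genes.

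Total RNA came from livers of C57BL/6J pups that received intraperitoneal injections on postnatal days 1 and 3 (P1 and P3). One arm was given a synthetic RNA that mimics miR-497a-5p and the other a scrambled mimic. Livers were collected on P5, on P7 or on P14, which makes 6 groups of 3 libraries (18 in total), named below by day, injection and replicate number. The protocol describes doses of 10 and 100 mg per kg, with 6 mice per group, and the labels of single libraries state neither a dose nor a pup or litter, so the p-values measure the spread between these livers. Uninjected livers were not analysed here, so every age change below was measured in injected pups.

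A mimic of this kind is a double-stranded RNA that is meant to be loaded directly into Argonaute, past the Drosha and Dicer1 steps. Base pairing of bases 2 to 8, the seed, with the 3′ UTR (the untranslated end) of an mRNA is the main feature by which a microRNA finds a target. The seed of miR-497a-5p is common to the miR-15/16 family, which liver cells also make from their own genes. The mature sequences below are from RefSeq (GRCm38.p6), with the seed in capitals, and show that the injected guide and its relatives differ outside the seed.
miR-497a-5p: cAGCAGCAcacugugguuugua
miR-195a-5p: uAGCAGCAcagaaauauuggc
miR-15a-5p: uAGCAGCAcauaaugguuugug
miR-16-5p: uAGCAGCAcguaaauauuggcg
miR-322-5p: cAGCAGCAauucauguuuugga

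The machinery itself carries matches to this seed. The 7 letters TGCTGCT, the complement of the seed, occurred in the annotated 3′ UTR of 5 of the 10 genes (Xpo5, Ago1, Ago2, Ago3 and Tnrc6b), against 21.9% of the 13204 tested genes with an annotated 3′ UTR. Drosha, Dgcr8, Dicer1, Tnrc6a and Tnrc6c had none in this annotation. The genes with matches include those with very long 3′ UTRs, of 11064 bases in Ago2, 12742 bases in Ago3 and 11609 bases in Tnrc6b, against a median of 968 bases over the tested genes. A match describes the sequence, not binding. The sites of the 3 genes with more than 1 match are printed 5′ to 3′ on the transcript's strand from the GRCm38 genome, with the match in capitals, because these are the stretches at which the injected guide could pair.
Ago2, chr15:73105311-73105317, minus strand: cttctcttgtgTGCTGCTctgtgctctgtg
Ago2, chr15:73096442-73096448, minus strand: ttttatattcaTGCTGCTtctagtcccttc
Ago3, chr4:126341738-126341744, minus strand: ttaaaaccagaTGCTGCTgagtagaaatgg
Ago3, chr4:126336619-126336625, minus strand: aacagagcagtTGCTGCTgtttgacacaga
Ago3, chr4:126333481-126333487, minus strand: cttcagacaatTGCTGCTgcttttaaaccc
Tnrc6b, chr15:80930521-80930527, plus strand: ctccaagaagcTGCTGCTcacctctgtgct
Tnrc6b, chr15:80931456-80931463, plus strand: cctctgtgactTGCTGCTAttgaggacaag
Tnrc6b, chr15:80933326-80933332, plus strand: ttttgaagatcTGCTGCTtactccccccat
Tnrc6b, chr15:80939905-80939911, plus strand: ggagatacaaaTGCTGCTttgggttccata
All of these lie in 3′ UTR exons. Ago3 has 1 more match, which overlaps the one at chr4:126333481-126333487, starting 3 bases further along the transcript. The Tnrc6b match at chr15:80931456-80931463 is followed by an A, which makes it an 8-letter match (TGCTGCTA), a kind found in 4.17% of the tested genes with an annotated 3′ UTR. Ago1 has 1 match at chr4:126437947-126437953. The Xpo5 match lies beyond the end that the deposited table gives for that gene.

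Values are scaled counts: read counts per gene that the authors divided by a factor per library and rounded, so that libraries can be compared. All 10 genes passed the filter, which asked for an average of at least 10 over the 18 libraries and left 14104 genes, and every value of the 10 genes was 134 or higher. Differences are log2 differences of scaled counts plus 1, given with their standard error (SE) from limma, and a gene is said to rise or fall where its p-value, adjusted over the 14104 genes, is under 0.05.

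Libraries sum to between 3954405 and 4248257 scaled counts, and they differ in 2 ways that bear on these long transcripts. First, the rank correlation across genes between a library's deviations and transcript length, here called its length trend, ran from -0.467 to 0.292 at P5, from 0.0763 to 0.624 at P7 and from -0.310 to -0.00596 at P14. In P5 it was highest in scrambled replicate 1, and at P7 in mimic replicates 1 and 3 and scrambled replicate 2, so long genes read high in those livers. The age changes of the 10 genes, and the counts of the partner genes called between days, are therefore also given with that trend removed. Second, P7 scrambled replicate 3 carried 3.08 scaled counts per kb over genes that are silent elsewhere, and P7 scrambled replicate 2 carried 0.168. The others carried at most 0.0260, but these genes were picked for their silence there, so low values follow from the choice. If the signal of P7 scrambled replicate 3 were spread evenly by transcript length, it would be 23.3% of its Ago3 value. The same share would be 14.9% for Tnrc6c, 10.3% for Tnrc6b and 3.72% for Ago2. An even spread was not tested, so these percentages rest on that assumption. Results are also given without these 2 libraries. Hepatocyte markers were present in every liver, with a summed level of 8 genes from 11079 to 17211 scaled counts.

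**Figure D1:**
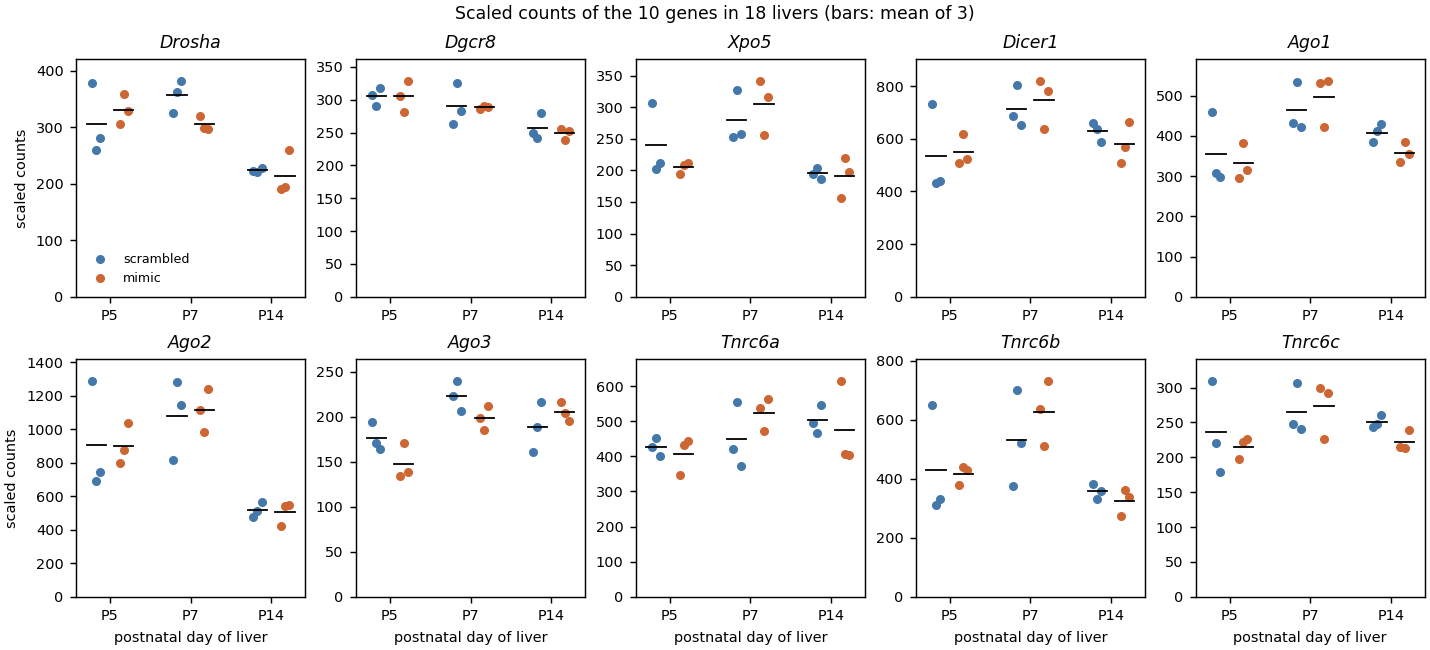
Scaled counts (vertical axes, starting at 0) of each of the 10 genes in the 18 livers, by postnatal day (horizontal axes). Blue points are scrambled and orange points mimic livers, and bars are means of 3. Ago2 lies between 421 and 565 in the 6 livers at P14 and between 692 and 1289 in all others, while mimic and scrambled points overlap in most panels.

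The first question the design asks is whether the mimic changed the machinery. None of the 10 genes rose or fell with the mimic at P5, P7 or P14, nor on average over the 3 days, and none had an unadjusted limma p under 0.05 in any of these comparisons. Over all genes tested, limma called 0% at P5, 0.00709% at P7, 0.0213% at P14 and 0.00709% for the average, so calls were rare everywhere. Their median log2 difference came to -0.04 at P5, then 0.06 at P7 and then -0.09 at P14, where that of all genes came to -0.01, -0.00 and 0.00.

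Ago2, the Argonaute that cuts targets, read 1289, 692 and 743 in the P5 scrambled livers and 797, 873 and 1035 in the P5 mimic livers. At P7 it read 815, 1280 and 1142 with the scrambled mimic and 1111, 985 and 1242 with miR-497a-5p. At P14 the values were 478, 514 and 565 against 421, 542 and 548. The arms overlapped at each day. The log2 differences were 0.04 at P5 (95% interval -0.37 to 0.45), 0.06 at P7 (-0.35 to 0.47) and -0.05 at P14 (-0.46 to 0.36), so a change of the size that separates P14 from P7 lay outside all 3 intervals. Without P7 scrambled replicates 2 and 3, which leaves only replicate 1 in that arm, the Ago2 difference at P7 was 0.44.

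Ago3, another Argonaute and the one of the 10 genes with the longest annotated 3′ UTR, read 194, 171 and 164 in scrambled and 134, 171 and 138 in mimic livers at P5. This gave a log2 difference of -0.26 (95% interval -0.52 to 0.00, unadjusted p = 0.0538, limma adjusted p = 1), the smallest unadjusted p of the 10 genes at any day. The value was -0.17 (-0.43 to 0.10) at P7 and 0.13 (-0.13 to 0.39) at P14, on the other side of 0. Tnrc6b, the scaffold gene with the 8-letter match, differed by 0.03 (-0.45 to 0.51) at P5, 0.26 (-0.22 to 0.75) at P7 and -0.14 (-0.63 to 0.34) at P14. Its P7 difference was 0.72 without P7 scrambled replicates 2 and 3. Ago1 differed by -0.08 (-0.39 to 0.24), 0.10 (-0.21 to 0.41) and -0.19 (-0.50 to 0.13), and Xpo5 by -0.21 (-0.54 to 0.13), 0.13 (-0.21 to 0.46) and -0.04 (-0.37 to 0.29). None of the 5 genes with matches had a difference of the same sign at all 3 days, and every interval included 0.

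The arms of 2 genes did not overlap in the deposited values at one day each. Drosha, the nuclear nuclease, read 325, 362 and 382 in P7 scrambled livers and 320, 299 and 296 in P7 mimic livers, a log2 difference of -0.22 (SE 0.13, adjusted p = 0.766). Tnrc6c, a scaffold gene, read 243, 248 and 261 in P14 scrambled livers and 215, 214 and 239 in P14 mimic livers, a difference of -0.17 (SE 0.16, adjusted p = 0.999). So 0 of 10 genes had arms apart at P5, 1 at P7 and 1 at P14, where this held for 5.01%, 14% and 9.31% of all genes tested. These shares are close to the background, and neither gene passed the test.

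Dgcr8, the RNA-binding partner of Drosha, had the narrowest intervals of the 10, at -0.00 (95% interval -0.20 to 0.20) at P5, -0.01 (-0.21 to 0.20) at P7 and -0.05 (-0.25 to 0.16) at P14. The intervals of the 10 genes at a single day ran from -0.63 at the lowest to 0.75 at the highest, both in Tnrc6b. How small a difference 3 livers an arm could show varied by gene, with an SE from 0.096 in Dgcr8 to 0.231 in Tnrc6b. In Dicer1, which makes the duplex, the differences were 0.08, 0.06 and -0.12, with an SE of 0.16 at each day. Tnrc6a, the scaffold gene with the highest level per kb, differed by -0.07, 0.24 and -0.11, also with an SE of 0.16. The mimic effect itself was not found to differ between the 3 days in any of the 10 genes (F test in limma, smallest adjusted p = 0.875), where 0.00709% of all genes were called.

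**Figure D2:**
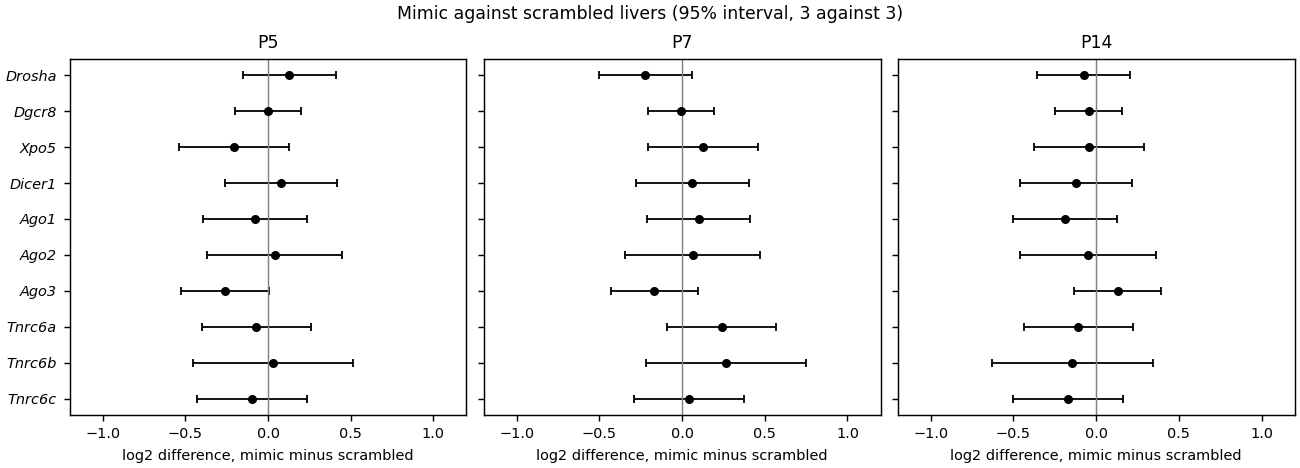
Log2 difference of mimic minus scrambled livers (horizontal axes) for each gene at P5, P7 and P14. Points are limma estimates and bars 95% intervals, 3 livers against 3. Every interval includes 0, and the widest belong to Tnrc6b.

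Age separated the livers far more than the injection did. Mimic and scrambled livers were averaged within a day for what follows. From P7 to P14, 6 of the 10 genes fell, 0 rose and 4 (Dicer1, Ago3, Tnrc6a and Tnrc6c) did not pass the test, where 26.3% of all genes fell, 24% rose and 50.3% were called in either direction. The median log2 difference of the 10 genes was -0.29, against 0.01 for all genes. With the length trend removed, 4 of the 6 (Ago2, Drosha, Xpo5 and Tnrc6b) still fell, where 24.3% of all genes fell and 46.5% were called. In that fit Tnrc6a (0.21), Ago3 (0.15) and Tnrc6c (0.061), not called, lay above 0.

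Ago2 fell most. It ranged from 815 to 1280 scaled counts at P7, with a median of 1127, and from 421 to 565 at P14, with a median of 528. The lowest P7 liver was above the highest P14 liver. Its mean was 1096 ± 173 at P7 and 511 ± 53.7 at P14 (SD, n = 6 each). On the log2 scale it fell by 1.09 (SE 0.14, limma adjusted p = 4.58e-06). The difference was -1.03 in scrambled livers alone and -1.15 in mimic livers alone, and both passed the test. Ago2 fell under all 30 alternative settings, with log2 differences from -1.18 to -0.84, the smallest with the length trend removed.

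Drosha, which makes the first cut, ranged from 296 to 382 with a median of 323 at P7, and from 190 to 259 with a median of 222 at P14, again without overlap. It fell by 0.59 on the log2 scale (SE 0.09, adjusted p = 5.43e-05), and its mean dropped by 33.8%. Its partner Dgcr8 ranged from 263 to 326 at P7 and from 239 to 280 at P14, with overlap, and fell by 0.19 (SE 0.07, adjusted p = 0.0255). The Dgcr8 call was weak: it was lost with the length trend removed (-0.11, adjusted p = 0.162), with 2 other scalings (TMM, adjusted p = 0.0543, and quantile, 0.0994) and with no filter (0.0615). It was also lost without P7 scrambled replicate 2 (adjusted p = 0.0829), P14 scrambled replicate 1 (0.0541) or 2 (0.0660), or P14 mimic replicate 2 (0.0505). Scrambled livers alone gave -0.17 (limma adjusted p = 0.176) and mimic livers alone -0.21 (0.103). Without P7 scrambled replicates 2 and 3 together the Dgcr8 difference was -0.12. The Drosha level per kb over that of Dgcr8 had a mean of 1.08 ± 0.119 at P7 and 0.819 ± 0.0930 at P14 (SD, n = 6 each), with the highest P14 liver at 0.968 and the lowest P7 liver also at 0.968.

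Xpo5, the export receptor, ranged from 253 to 342 with a median of 287 at P7 and from 157 to 219 with a median of 197 at P14, and no P14 liver reached the P7 range. It fell by 0.59 (SE 0.11, adjusted p = 0.000329). Dicer1 ranged from 637 to 821 at P7 and from 510 to 664 at P14, and its difference of -0.27 (SE 0.11, adjusted p = 0.0573) did not pass the test. With the length trend removed, the Dicer1 difference was -0.04 (SE 0.08, adjusted p = 0.685). Every P7 library had a higher length trend than every P14 library. An age change shared by long genes and the length trend therefore cannot be told apart here. The Dicer1 difference passed the test in the quantile-normalized fit (adjusted p = 0.0403) and with the P7 and P14 libraries alone (0.0135). It also passed without P5 scrambled replicate 1 (0.0100), 2 (0.0460) or 3 (0.0491), P7 mimic replicate 2 (0.0306) or P14 mimic replicate 3 (0.0350).

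Among the scaffold genes, Tnrc6b ranged from 376 to 733 with a median of 578 at P7 and from 273 to 381 with a median of 348 at P14. The ranges met at P7 scrambled replicate 1, the lowest liver of its day. Tnrc6b fell by 0.74 (SE 0.16, adjusted p = 0.00124), and by 0.47 (SE 0.11, adjusted p = 0.00168) with the length trend removed. In scrambled livers alone the difference was -0.53 (adjusted p = 0.0829), and in mimic livers alone it was -0.94 (adjusted p = 0.00592). These were not found to differ (difference -0.41, SE 0.33, limma adjusted p = 0.795). Tnrc6a had means of 487 ± 79.2 at P7 and 489 ± 82.7 at P14 (SD, n = 6 each), and Tnrc6c differed by -0.18 (SE 0.11, adjusted p = 0.194).

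Of the other Argonautes, Ago1 ranged from 421 to 537 at P7 and from 336 to 429 at P14 and fell by 0.32 (SE 0.11, adjusted p = 0.0176). The Ago1 call was lost with the length trend removed (-0.12, adjusted p = 0.113) and without P7 scrambled replicate 2 (adjusted p = 0.0538). It was also lost in scrambled livers alone (-0.18, limma adjusted p = 0.380), where mimic livers alone gave -0.46 (adjusted p = 0.0269). Without P7 scrambled replicates 2 and 3 together the Ago1 difference was -0.275. Ago3 differed by -0.10 (SE 0.09, adjusted p = 0.357). In the deposited values P7 and P14 did not overlap in 3 of the 10 genes (Drosha, Xpo5 and Ago2), near the 25.5% of all genes for which this held. Without P7 scrambled replicates 2 and 3, 4 of the 10 genes fell (Drosha, Xpo5, Ago2 and Tnrc6b).

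The liver also changed its cells between these days. Summed red cell markers (10 of 10 in the table) ranged from 5004 to 7575 scaled counts at P7 and from 1035 to 2016 at P14. Neutrophil markers (8 of 8) ranged from 3086 to 4000 and from 609 to 1391, megakaryocyte markers (5 of 5) from 923 to 1634 and from 281 to 786, and cell cycle genes (6 of 6) from 3849 to 5727 and from 1981 to 2640. Hepatocyte markers (8 of 8) ranged from 12785 to 17208 at P7 and from 13041 to 17211 at P14. The largest parts of that sum were Apob and Cps1, with medians of 4670 and 2711 over the livers, above Alb (2101). A similar sum does not show that hepatocytes made up a similar part of the tissue. In the red cell list, the globin genes Hbb-bs and Hba-a1 had medians of only 221 and 69, against 2234 for Slc4a1. Whether very abundant transcripts read too low in these values was not tested. The order of genes within a sum is therefore not an order of RNA amounts. None of these markers was at 0 in any liver. The part of these cells in the falls of Ago2, Drosha, Xpo5 and Tnrc6b was not tested, and in bulk tissue fewer cells of a type and less RNA per cell cannot be told apart. Skeletal muscle markers (6 genes) ranged from 39 to 1635 in the P7 scrambled livers, with a mean of 691. They reached at most 42 in P7 mimic livers, 63 at P5 and 24 at P14.

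From P5 to P7, the calls were in the other direction and less stable. Of the 10 genes, 5 rose and 0 fell, where 13.7% of all genes rose, 13.2% fell and 26.9% were called in either direction. Ago1 rose by 0.49 (SE 0.11, adjusted p = 0.00508), Ago3 by 0.38 (SE 0.09, adjusted p = 0.00698), Dicer1 by 0.45 (SE 0.11, adjusted p = 0.0110), Xpo5 by 0.40 (SE 0.11, adjusted p = 0.0166) and Tnrc6b by 0.46 (SE 0.16, adjusted p = 0.0447). P5 and P7 overlapped in all 10 genes, where 5.23% of all genes did not overlap. The cell markers differed between these days as well. Summed hepatocyte markers ranged from 11079 to 14397 scaled counts at P5 and from 12785 to 17208 at P7. Red cell markers ranged from 6802 to 9305 and from 5004 to 7575, and megakaryocyte markers from 1378 to 1951 and from 923 to 1634. Their part in the rises was not tested.

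One P5 liver, scrambled replicate 1, was the highest of its day for Drosha, Xpo5, Dicer1, Ago1, Ago2, Ago3, Tnrc6b and Tnrc6c. For Ago2 it read 1289 where the other P5 livers read 692 to 1035, and for Tnrc6b 650 where the others read 311 to 440. It was also the P5 library with the highest length trend. Without it, 7 of the 10 genes rose, Ago2 (0.43, adjusted p = 0.00664) and Tnrc6c (0.37, adjusted p = 0.00634) being added.

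With the length trend removed, 2 of the 10 genes rose from P5 to P7: Ago1 by 0.26 (SE 0.06, adjusted p = 0.0111) and Xpo5 by 0.27 (SE 0.09, adjusted p = 0.0461), where 8.07% of all genes rose and 16.3% were called. Ago3 went to 0.00 (SE 0.08), Tnrc6b to 0.06 (SE 0.11) and Dicer1 to 0.15 (SE 0.08, adjusted p = 0.211), and Ago2 from 0.29 to -0.07. Without P7 scrambled replicates 2 and 3, 2 of the 10 genes rose (Ago1 and Ago3). The count was 3 without P7 scrambled replicate 2 and 3 without P7 mimic replicate 1, where Xpo5 (adjusted p = 0.0510 and 0.0544) and Tnrc6b (0.129 and 0.0904) were lost. The Tnrc6b call was lost in most settings, among them the fit without P5 scrambled replicate 2 (0.36, adjusted p = 0.124) and without P7 mimic replicate 3 (0.40, adjusted p = 0.110).

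**Figure D3:**
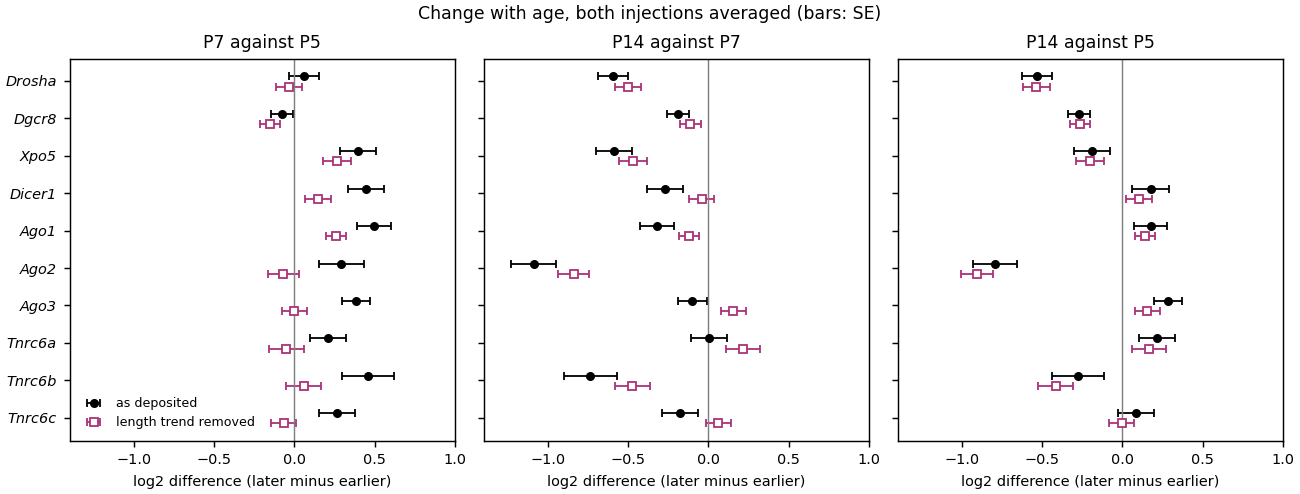
Log2 differences between days (horizontal axes, later minus earlier) for each gene, as deposited (black circles) and with each library's length trend removed (open squares), with SE bars and 6 livers against 6. In P14 against P7 the Ago2, Drosha, Xpo5 and Tnrc6b values lie well below 0 in both versions, while in P7 against P5 the values of Ago3 and Tnrc6b move to near 0 once the trend is removed.

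Over the whole interval from P5 to P14, 3 of the 10 genes fell and 1 rose, where 24.8% of all genes fell, 23.9% rose and 48.8% were called. Ago2 fell by 0.80 (SE 0.14, adjusted p = 9.70e-05), Drosha by 0.53 (SE 0.09, adjusted p = 0.000113) and Dgcr8 by 0.27 (SE 0.07, adjusted p = 0.00298). These are also the 3 genes whose P5 and P14 livers did not overlap, a pattern shared by 26.2% of all genes. The length trends of P5 and P14 overlapped, with medians of -0.309 and -0.152 and a wider range at P5. With the trend removed the differences were -0.91 for Ago2, -0.54 for Drosha and -0.26 for Dgcr8, each past the threshold. So the 2 Microprocessor genes and Ago2 fell, while Xpo5 (-0.19, SE 0.11, adjusted p = 0.168) and Dicer1 (0.18, SE 0.11, adjusted p = 0.218) did not pass the test. Red cell markers ranged from 6802 to 9305 at P5 against 1035 to 2016 at P14, and neutrophil markers from 3686 to 7232 against 609 to 1391. Megakaryocyte markers ranged from 1378 to 1951 against 281 to 786 and cell cycle genes from 4661 to 5951 against 1981 to 2640. The part of all these in the falls of Ago2, Drosha and Dgcr8 was not tested.

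Ago3 rose from P5 to P14 by 0.28 (SE 0.09, adjusted p = 0.0132), from a range of 134 to 194 to a range of 161 to 216. The call was lost with the length trend removed (0.16, adjusted p = 0.0971) and in scrambled livers alone (0.09, adjusted p = 0.628). In mimic livers alone Ago3 rose by 0.48 (SE 0.13, adjusted p = 0.00655). The change in mimic minus that in scrambled livers was 0.39 (SE 0.18, limma adjusted p = 1), and none of the 10 genes passed the test for such a difference between any 2 days. Tnrc6b differed by -0.28 (SE 0.16, adjusted p = 0.172) and fell by 0.42 (SE 0.11, adjusted p = 0.00348) with the length trend removed. Without P5 scrambled replicate 1, Ago1 (0.28, adjusted p = 0.0148) and Dicer1 (0.30, adjusted p = 0.00777) also rose.

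**Figure D4:**
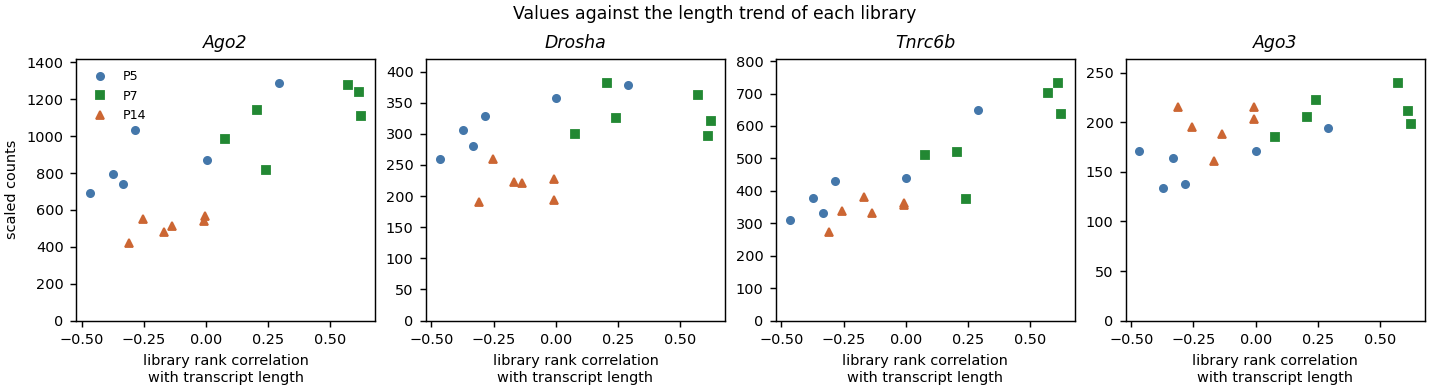
Scaled counts (vertical axes, starting at 0) of Ago2, Drosha, Tnrc6b and Ago3 against the length trend of each of the 18 libraries (horizontal axes, rank correlation of the library's deviations with transcript length). P14 livers (triangles) lie below P5 livers (circles) of a similar length trend for Ago2 and Drosha, but not for Ago3, and P7 livers (squares) lie at trends of 0.0763 or higher.

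The makeup of the Argonaute family shifted with age. Here levels were divided by the length of the longest transcript in kb, so that genes can be set side by side, and the remaining Argonaute, Ago4, was added to the 3 named above. Ago2 made up 48.5% ± 4.04 of the 4 genes' level at P5, 45.7% ± 3.10 at P7 and 31.9% ± 1.69 at P14 (SD, n = 6 each). The lowest liver before P14 was at 40.2% and the highest at P14 was at 34.5%. The share of Ago1 was 35.4% ± 2.14, 38.4% ± 2.25 and 45.6% ± 2.24, and its lowest P14 liver (42.7%) was above its highest earlier liver (40.9%).

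The smaller shares moved in the same direction as Ago1. Shares add up to the whole, so a lower Ago2 share by itself raises the others as a set. In the deposited values, Ago1 (-0.32), Ago3 (-0.10) and Ago4 (-0.04) had log2 differences below 0 from P7 to P14. Ago3 stood at 7.87% ± 1.25, 7.87% ± 0.983 and 10.9% ± 1.35. Ago4 ranged from 6.82% to 9.49% at P5, from 7.31% to 9.36% at P7 and from 9.16% to 12.7% at P14. Mimic and scrambled livers gave similar Ago2 shares at P14, of 32.3% ± 2.56 and 31.5% ± 0.354 (SD, n = 3 each). The summed Argonaute level was 134 ± 26.4 scaled counts per kb at P5, 173 ± 20.9 at P7 and 116 ± 9.12 at P14. These shares describe the values already tested above and were given no test of their own, and they were computed from the deposited values, without removing the length trend. Ago4 itself rose from P5 to P7 by 0.35 (SE 0.13, adjusted p = 0.0470), which was lost with the length trend removed (0.15, adjusted p = 0.347), and differed by -0.04 (SE 0.13, adjusted p = 0.791) from P7 to P14.

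**Figure D5:**
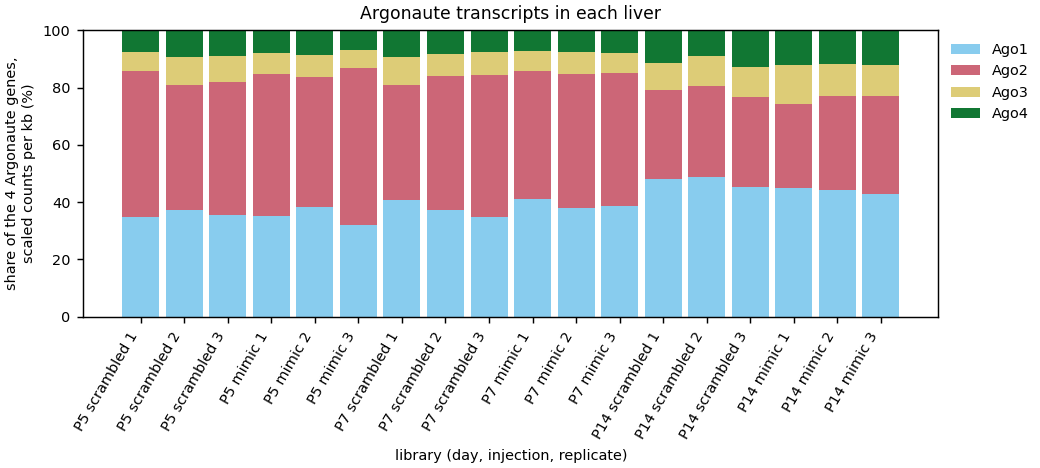
Share of each of the 4 Argonaute genes in their summed level per kb (vertical axis, percent) in each of the 18 livers (horizontal axis). The Ago2 share lies between 40.2% and 54.8% in the 12 livers at P5 and P7 and between 29.5% and 34.5% in the 6 at P14, where Ago1 holds the largest share.

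Within the Tnrc6 family, Tnrc6a had the highest mean level per kb at each day. The per-kb mean of Tnrc6b was above that of Tnrc6c at P5 and P7 and below it at P14, with overlapping ranges at all 3 days. Before division by length, Tnrc6b had the higher mean at P5 (424 against 417 for Tnrc6a) and at P7 (580 against 487). Per kb in the deposited values, Tnrc6a held 54.1% ± 5.42 of the family at P5, 51.3% ± 2.64 at P7 and 59.5% ± 4.94 at P14. Tnrc6b held 25.5% ± 4.26, 28.6% ± 3.06 and 19.9% ± 3.19. Tnrc6c stayed between 20.1% and 20.6% as a mean. Dicer1 stood against Drosha at a per-kb ratio of 0.784 ± 0.0609 at P5, 1.03 ± 0.157 at P7 and 1.28 ± 0.0812 at P14 (SD, n = 6 each), and the lowest P14 liver (1.19) was above the highest P5 liver (0.898).

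On the same per-kb scale, the levels of the 10 genes lay close together apart from 3 long ones. At P5, Dgcr8 (70.6 ± 4.08 scaled counts per kb), Drosha (69.7 ± 9.92) and Ago2 (65.6 ± 16.2) led, and each of the first 7 genes in the order overlapped its neighbour. Tnrc6b (24.5 ± 7.05), Tnrc6c (19.5 ± 3.88) and Ago3 (10.4 ± 1.45) were lowest, and Ago3 overlapped neither. At P7, Ago2 led with 79.4 ± 12.5 and overlapped Dicer1 (74.1 ± 8.22), the next in order. At P14, Ago2 had rank 7, at 37.1 ± 3.89, behind Dicer1 (61.4 ± 6.11), Tnrc6a (59.7 ± 10.1), Dgcr8 (58.6 ± 3.37), Ago1 (53.0 ± 4.75), Drosha (47.9 ± 5.49) and Xpo5 (38.1 ± 4.09), the last of which it overlapped. The order depends on the length used: by the summed length of all annotated exons, Ago2 had rank 1 at P5, rank 1 at P7 and rank 4 at P14, while Dgcr8 had ranks 4, 7 and 6.

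The 10 genes did not share one course. For 9 of them, the gene with the most similar course over the 18 libraries was found as the smallest root mean square difference of centred log2 values, among 9924 genes that averaged at least 100 scaled counts. The nearest was Ckap5 for Ago2 (0.133), Ttf2 for Drosha (0.0973), Atic for Dgcr8 (0.0818), Zfp568 for Xpo5 (0.0705) and Cmtm4 for Dicer1 (0.0848). It was Gnptab for Ago3 (0.121), Hps5 for Tnrc6a (0.146), Polr2a for Tnrc6b (0.122) and Polr3b for Tnrc6c (0.0759). Among themselves the closest were Dicer1 and Ago1 (0.106), with 17 other genes nearer to Dicer1, whereas the nearest of the 10 to Drosha was Dgcr8 (0.236), with 903 genes nearer. These distances include the length trend and are a description.

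A wider list of 76 tested genes that act around this core gave the setting, and limma called 0 of them with the mimic at P5, P7 or P14 (0, 1 and 2 had an unadjusted p under 0.05). The smallest p-values belonged to Cnot11 and Fmr1 at P5 (-0.14 and -0.19, adjusted p = 1 for both), to Tob1, an adaptor of the deadenylase, at P7 (0.39, adjusted p = 0.484) and to Dis3l2, a nuclease for uridylated RNA, at P14 (-0.36, adjusted p = 0.757). Dleu2, whose transcript hosts miR-15a and miR-16, read 125 on average in P14 mimic and 85.7 in P14 scrambled livers (0.58, SE 0.22, adjusted p = 0.770). That value ran from 0.295 without P14 scrambled replicate 1 to 0.808 without P14 scrambled replicate 2. Smc4, which hosts miR-15b and miR-16, differed by -0.08 (SE 0.12) at P14.

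From P7 to P14, 9 of the 76 genes rose and 29 fell, so that 50% were called, where 50.3% of all genes were. With the length trend removed, 14 rose and 26 fell, and 32 of the 38 calls were kept. Among genes named here, Zswim8 and Tsnax were lost. Lin28a and Lin28b, which block let-7 maturation in immature cells, read 25 to 37 and 9 to 34 scaled counts at P7 and 0 to 3 for both at P14, without overlap (adjusted p = 7.69e-08 and 7.55e-07). At P5 they had read 30 to 100 and 21 to 50. Adar, an editor of double-stranded RNA, fell by 0.67 (SE 0.10, adjusted p = 2.01e-05), and the nuclear pore gene Nup153 by 0.87 (SE 0.12, adjusted p = 1.33e-05). Xpo1, another export receptor, fell by 0.40 (SE 0.07, adjusted p = 7.78e-05), and Smc4 by 0.87 (SE 0.08, adjusted p = 1.47e-07).

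The roles are set against the same background, in which 24% of all genes rose and 26.3% fell. Of 16 deadenylation genes 3 rose and 4 fell, among them Cnot8, a catalytic subunit, which rose by 0.45 (SE 0.05, adjusted p = 1.39e-06), and Pabpc4, a poly(A)-binding protein, which fell by 0.65 (SE 0.09, adjusted p = 8.02e-06). Of 13 decapping and decay genes 0 rose and 8 fell, Dcp2, the decapping enzyme, by 0.53 (SE 0.07, adjusted p = 1.05e-05) and its activator Dcp1a by 0.45 (SE 0.09, adjusted p = 0.000535). Of 13 nuclear processing genes 2 rose and 3 fell, with Ncbp2, a cap-binding subunit, rising by 0.28 (SE 0.06, adjusted p = 0.00141) and Khsrp falling by 0.38 (SE 0.09, adjusted p = 0.00177). Of 11 genes of dicing and loading 2 rose and 2 fell. Adar, given above, and Hsp90aa1, an Hsp90 chaperone (-0.20, SE 0.07, adjusted p = 0.0205), fell. The genes that rose were Fkbp4 by 0.31 (SE 0.07, adjusted p = 0.00140) and Ptges3 by 0.32 (SE 0.09, adjusted p = 0.00786), both partners of Hsp90. With the length trend removed, 5 deadenylation genes rose and 3 fell, and 0 decapping and decay genes rose and 7 fell. In nuclear processing 3 rose and 4 fell, and in dicing and loading 2 rose and 3 fell. In that fit 22.2% of all genes rose and 24.3% fell. The count of 38 called went to 20 without P7 scrambled replicates 2 and 3.

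From P5 to P7, 13 of the 76 genes rose and 8 fell, so that 27.6% were called, where 26.9% of all genes were. With the length trend removed, 5 rose and 11 fell, and 9 of the 21 calls were kept. Lost among genes named here were Nup153, Ipo8, Ncbp2, Ptges3, Pan2, Gigyf2, Zswim8 and Ago4. Zcchc11, the uridyltransferase also called Tut4, rose by 0.72 (SE 0.15, adjusted p = 0.00511), and Cnot1, the scaffold of the deadenylase, by 0.59 (SE 0.14, adjusted p = 0.00779). Ran, the GTPase that drives export, fell by 0.35 (SE 0.08, adjusted p = 0.00687), while Xpo5 rose in the same comparison. The count of 21 called went to 9 without P7 scrambled replicates 2 and 3 and to 8 without P7 mimic replicate 1. From P5 to P14, 7 rose and 20 fell (35.5% called, against 48.8% of all genes), and all 27 calls were kept with the length trend removed, where 9 rose and 24 fell. Pabpc4 fell by 0.99 (SE 0.09, adjusted p = 2.37e-08), Adar by 0.89 (SE 0.10, adjusted p = 3.66e-07) and Ncbp1, the large cap-binding subunit, by 0.33 (SE 0.06, adjusted p = 0.000206), while Tob1 rose by 0.62 (SE 0.11, adjusted p = 7.96e-05).

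Other called partner genes with the smallest p of their role, given by their log2 differences, moved as follows. From P5 to P7 Ipo8 (0.28), Nup153 (0.34), Pan2 (0.30), Patl1 (0.44), Gigyf2 (0.37), Zswim8 (0.28) and Mov10 (0.36) rose, and Srsf3 (-0.43), Ncbp2 (-0.18), Ptges3 (-0.29), Pabpc4 (-0.34), Lin28b (-1.26) and Dleu2 (-0.54) fell, while Smc4 (-0.03) did not pass the test. From P7 to P14 Srsf3 (0.26), Tob1 (0.40), Tsnax (0.13) and Dleu2 (0.41) rose, and Ddx17 (-0.22), Cnot1 (-0.69) and Zswim8 (-0.26) fell. From P5 to P14 Ipo8 (0.32), Fkbp4 (0.17), Cnot8 (0.40) and Lsm14b (0.34) rose, and Hnrnpa1 (-0.29), Xpo1 (-0.45), Nup153 (-0.53), Hsp90aa1 (-0.27), Pabpc1 (-0.42), Dcp2 (-0.34), Dcp1a (-0.37) and Smc4 (-0.90) fell. Ago4 (0.31, adjusted p = 0.0521; 0.29, adjusted p = 0.0280 with the length trend removed) and Dleu2 (-0.12, adjusted p = 0.540) did not pass the test in that comparison, and Lin28a and Lin28b fell in it as well. With the mimic, the remaining small p-values belonged to Pum2 (-0.13) and Cnot3 (0.16) at P5, to Tob2 (0.31), Lin28b (-0.92) and Elavl1 (-0.14) at P7 and to Srsf3 (0.29) and Snd1 (-0.14) at P14, none past the threshold. Lin28b read 11, 24 and 34 in P7 scrambled livers and 10, 13 and 9 in P7 mimic livers. Its highest values were those of P7 scrambled replicates 2 and 3, the libraries with signal at silent genes.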

How the data were processed

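The 18 libraries were made with a stranded mRNA kit, per the labels' protocols. What the authors deposited is a whole-number score per gene: judged from its values, a read count that the authors divided by a size factor and rounded, so the values are not raw counts and no count model was used. Per the submitters' processing notes, the tools were DESeq2 1.26.0, featureCounts 1.6.5, Picard 2.21.7, STAR 2.6.1d and Trimmomatic 0.39, with the build mm10 (GRCm38). Strand settings and duplicate removal: not given in the sources used here. Groups came from the sample titles.

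Genes with a mean of 10 or more entered a limma 3.58.1 fit (R 4.3.3) of log2(value + 1): a mean for each of the 6 groups over all 18 libraries, so that the groups share 1 estimate of the spread, contrasts between them, eBayes with a mean-variance trend, and Benjamini-Hochberg adjustment over all genes tested with a threshold of 0.05. On this scale the change of a low gene is understated. The length trend was removed as a lowess of each gene's deviation from its mean on log2 transcript length. GENCODE M21 (GRCm38) gave transcript lengths and 3′ UTRs, using for each gene the longest transcript and the UTR of the transcript with the longest coding sequence. Sites were searched on the sense strand. The script was tested on simulated data. Software was Python 3.11.15 with matplotlib 3.10.9, pandas 2.3.3 and numpy 2.4.6.

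The 10 genes and all lists were chosen with earlier results of these data known. Partner genes were named by a rule: up to 2 per role and direction with the smallest p among those called, or the 4 with the smallest p, with Ago4 and the host genes always named. A listed host gene of miR-497a is not analysed here, and Trim71 was below the filter. Some genes that the rules gave are not reported here. The alternatives tried were TMM and quantile scaling, a filter at a mean of 50 or none, a pseudocount of 5, a fit of the compared libraries alone, eBayes without the trend, the replicate block, the length trend removed, 1 arm only, no P7 scrambled replicates 2 and 3, and each library left out.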

Additional observations from a re-analysis of the deposited data

How the results depend on the processing

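None of the 10 genes was called with the mimic under any of the 27 or 28 alternatives run per comparison, and none of the 76 partner genes was either. Ago2, Drosha and Xpo5 fell from P7 to P14 under all 30 alternatives, and Ago2 and Drosha from P5 to P14. The 5 of the 10 genes called from P5 to P7 became 2 with the length trend removed, 2 without P7 scrambled replicates 2 and 3, 0 in scrambled livers alone and 3 in mimic livers alone, and 3 to 7 with 1 library left out. Scrambled livers alone gave 3 of 6 from P7 to P14 and 2 of 4 from P5 to P14. Called partner genes went from 21 (P5 to P7) to 9 without P7 scrambled replicates 2 and 3, 0 in scrambled and 6 in mimic livers alone, and from 38 (P7 to P14) to 20 without those 2 libraries and 18 in scrambled livers alone. Counts in 1 arm use fewer livers; the cause of the other changes was not tested.

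The replicate numbers were not treated as pairs: same-numbered libraries deviated together in all 3 pairs (correlation over 0.1) in 2 of 15 pairs of groups, neither of them a mimic and a scrambled group of 1 day, over a range of -0.463 to 0.532. With the replicate number as a block, 4 of the 10 genes were called from P5 to P7 (Tnrc6b was lost, adjusted p = 0.0586), 6 from P7 to P14, 4 from P5 to P14 and 0 with the mimic.

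The log2 differences below, none of them past the threshold in the main analysis, changed sign. With quantile normalization, the values were Dgcr8 0.018 (mimic at P5), Dleu2 0.046 (mimic at P7), Ago4 -0.013 (mimic at P14), Ago4 0.11 (P14 against P7), Dleu2 0.044 (P14 against P5). With TMM scaling, the values were Dgcr8 0.050 (mimic at P7), Dleu2 0.047 (mimic at P7), Smc4 0.019 (mimic at P7). Without P7 scrambled replicates 2 and 3, the values were Dgcr8 0.13 (mimic at P7), Smc4 0.27 (mimic at P7), Dgcr8 0.029 (mimic over the 3 days), Xpo5 0.003 (mimic over the 3 days), Smc4 0.026 (mimic over the 3 days), Drosha -0.005 (P7 against P5). With the length trend removed, the values were Tnrc6c -0.003 (mimic at P7), Ago2 0.024 (mimic at P14), Drosha -0.034 (P7 against P5), Ago2 -0.068 (P7 against P5), Tnrc6a -0.050 (P7 against P5), Tnrc6c -0.066 (P7 against P5), Ago3 0.15 (P14 against P7), Tnrc6c 0.061 (P14 against P7), Ago4 0.14 (P14 against P7) and Tnrc6c -0.005 (P14 against P5). In mimic livers alone, the values were Drosha -0.12 (P7 against P5), Smc4 0.007 (P7 against P5), Ago3 0.048 (P14 against P7), Tnrc6a -0.17 (P14 against P7), Ago4 0.023 (P14 against P7), Dleu2 0.18 (P14 against P5).

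With each library left out in turn, some values near 0 took either sign. The ranges for mimic at P5 were Dgcr8 -0.056 to 0.058, Dicer1 -0.053 to 0.33, Ago1 -0.19 to 0.12, Ago2 -0.13 to 0.32, Tnrc6a -0.14 to 0.041, Tnrc6b -0.16 to 0.37, Tnrc6c -0.28 to 0.12, Dleu2 -0.17 to 0.11. The ranges for mimic at P7 were Dgcr8 -0.075 to 0.079, Dicer1 -0.011 to 0.17, Ago2 -0.13 to 0.20, Tnrc6c -0.033 to 0.17, Dleu2 -0.079 to 0.052, Smc4 -0.19 to 0.069. The ranges for mimic at P14 were Drosha -0.22 to 0.003, Dgcr8 -0.088 to 0.017, Xpo5 -0.15 to 0.093, Ago2 -0.12 to 0.074, Ago4 -0.11 to 0.20. The ranges for mimic over the 3 days were Dgcr8 -0.040 to 0.011, Xpo5 -0.078 to 0.022, Dicer1 -0.037 to 0.090, Ago1 -0.092 to 0.012, Ago2 -0.045 to 0.11, Tnrc6a -0.047 to 0.075, Tnrc6b -0.025 to 0.16. The ranges for P7 against P5 were Smc4 -0.083 to 0.045. The ranges for P14 against P7 were Tnrc6a -0.096 to 0.087, Ago4 -0.13 to 0.030. The ranges for P14 against P5 were Tnrc6c -0.005 to 0.19, Dleu2 -0.24 to 0.019.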
